A study of Macaca mulatta with 136 samples.

Results

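Neural retina and RPE/choroid from the nasal location of the rhesus macaque (*Macaca mulatta*) eye were compared by RNA-seq, in 8 of the 32 libraries of the series. Members were taken by their labels alone: the 4 neural retina libraries and the 4 RPE/choroid libraries made from nasal punches, so that each retina library has a partner from the same eye. The eyes were the right and the left eye of 2 animals, RM03 and RM04, both adults in the second decade of life, and they are called eye 1 (RM03, right), eye 2 (RM03, left), eye 3 (RM04, right) and eye 4 (RM04, left). The labels give no treatment and no genetic change for either animal, only that tissue was taken after death. Punches of 2 mm were separated by microdissection into neural retina and RPE/choroid, and RNA from each layer was sequenced. RPE/choroid here means the retinal pigment epithelium (RPE) with the choroid beneath it, and neither layer was sorted into cell types. The nasal punches were not part of the comparisons that the study itself set out between macula and periphery. With fellow eyes of 2 animals in each group, p-values measure the spread among these eyes and reach no further than these animals.

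The neural retina holds rod and cone photoreceptors, the bipolar, horizontal and amacrine interneurons, the ganglion cells whose axons form the optic nerve, and Müller glia that span its depth. The RPE is a pigmented epithelium that regenerates the visual chromophore, takes up shed photoreceptor outer segments and moves ions, water and nutrients between the retina and the blood. Below it lie Bruch's membrane, a sheet of collagen and elastin, and the choroid, a bed of fenestrated vessels with melanocytes, fibroblasts, macrophages, mast cells and nerves. In bulk tissue, fewer cells of a type and less RNA per cell cannot be told apart, and this holds for every level given here.

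Library totals ran from 47431788 to 64466280 estimated counts, and every nasal library was spread over the same 5 lanes on 2 flow cells. No library stood apart from its group: the root mean square distance of a library from the mean of the other 3 was 0.30 to 0.32 on the log2 scale in retina and 0.42 to 0.47 in RPE/choroid. Levels are given in CPM, counts scaled to a total of 1000000 per library after TMM scaling, in the order eye 1 to eye 4. Because no gene lengths were used, a CPM value can be compared between libraries but not between genes. The tissue labels were checked with defining markers. RBP3, the retinoid carrier of the space around photoreceptors, stood at 8593, 7806, 10138 and 10496 CPM in retina and 7.63, 39.2, 17.6 and 22 CPM in RPE/choroid. RPE65, the isomerase of the visual cycle, stood at 5371, 4594, 8354 and 7921 CPM in RPE/choroid and 183, 112, 110.2 and 116 CPM in retina. Each library therefore carried the markers of the layer on its label, with a small amount of the other layer's.

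Of 15532 genes tested, 12379 differed between the tissues at an adjusted p under 0.05, which is 79.7% of the genes tested (edgeR quasi-likelihood test with the animal as covariate, Benjamini-Hochberg adjustment). The calls were almost evenly divided, with 6264 genes (40.3%) higher in retina and 6115 genes (39.4%) higher in RPE/choroid. Scaling by library size alone in place of TMM shifted log2 fold changes up by a median of 0.16 and the share of calls higher in retina from 50.6% to 56.5%. A difference above 2-fold was found for 3367 genes in favour of retina (21.7%) and 3940 in favour of RPE/choroid (25.4%). At a log2 difference above 3 there were 1237 genes higher in retina (7.96%) and 1762 higher in RPE/choroid (11.3%), and above 5 there were 595 (3.83%) and 678 genes (4.37%). In 11329 genes (72.9%) the 4 libraries of one tissue lay entirely above the 4 of the other, with the retina above in 5696 (36.7%) and the RPE/choroid in 5633 (36.3%). The median log2 fold change of retina over RPE/choroid was 0.033 over the genes tested, and the median of its absolute value was 0.93, against a median standard error (SE) of 0.12. Each list below is to be read against these figures, since a called difference was the usual outcome at this location.

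**Figure D1:**
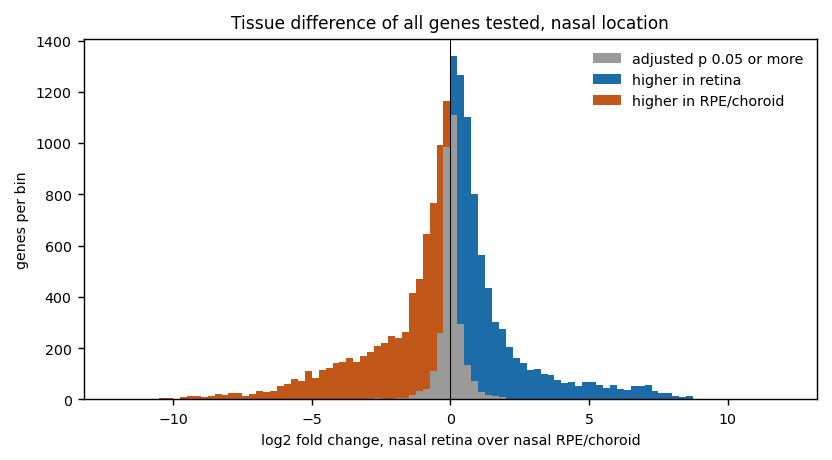
Distribution of the log2 fold change of nasal retina over nasal RPE/choroid over 15532 genes tested, in bins of 0.25, with genes at an adjusted p under 0.05 coloured by the tissue in which they were higher and the other genes in grey. The 6264 genes higher in retina and the 6115 higher in RPE/choroid form long tails on both sides of a centre near 0.

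Rod genes stood far higher in retina. All 11 rod genes that could be measured were called higher in retina, beside 40.3% of all genes tested, with log2 fold changes from 4.20 to 8.21 and a median of 7.48, beside 0.033 over the genes tested. PDE6A, the alpha subunit of the rod phosphodiesterase, had 4227, 4022, 3184 and 3399.6 CPM in retina and 4.14, 26.5, 9.81 and 17.6 CPM in RPE/choroid. The groups did not overlap, and the retina was 254-fold higher (log2 fold change 7.99, SE 0.47, adjusted p = 7.67e-06, edgeR). Arrestin of rods, SAG, had 5272, 4443, 6322 and 6386 CPM in retina and 8.41, 47.6, 28 and 30.3 CPM in RPE/choroid (log2 fold change 7.60, SE 0.43). For NRL, the transcription factor that sets rod identity, the retina held 1233, 1110.2, 1368 and 1421 CPM and the RPE/choroid 2.38, 9.7, 6.52 and 7.58 CPM (log2 fold change 7.61, SE 0.34). In the RPE/choroid these genes were lowest in eye 1 and highest in eye 2 of the same animal, while the retina libraries of those eyes were close to each other. GNB1, a G protein beta subunit used by rods and by other cells, showed the smallest difference of the list, with 7024, 6131, 7389.7 and 7130.1 CPM in retina and 337, 393, 396 and 381 CPM in RPE/choroid.

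The machinery shared by rods and cones followed. All 18 genes of this list were called higher in retina, with a median log2 fold change of 6.93. Members included RCVRN (recoverin, a calcium sensor of the light response; log2 fold change 6.53, SE 0.38), GUCA1A and GUCA1B, which activate guanylate cyclase when calcium drops (7.81, SE 0.40, and 8.29, SE 0.36), and IMPG2, a proteoglycan of the matrix around photoreceptors (8.39, SE 0.29). The smallest difference was that of UNC119, a lipid-binding trafficking protein, at 2.38 (SE 0.13). ABCA4, the retinoid flippase of outer segment discs, kept a steady level in RPE/choroid, 234, 242, 238 and 222 CPM against 2582, 2446, 2486 and 2721 CPM in retina. Its RPE/choroid level did not follow the spread of the rod genes across the eyes. CRX, a homeobox factor of photoreceptors, had 188, 186, 141 and 129 CPM in retina and 15.1, 16, 12.2 and 8.63 CPM in RPE/choroid (log2 fold change 3.64, SE 0.10).

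Of 11 cone genes, 10 were called higher in retina and 1 higher in RPE/choroid, with a median log2 fold change of 5.58. ARR3, cone arrestin, had 536, 502, 643 and 616 CPM in retina and 4.95, 10.4, 5.22 and 7.88 CPM in RPE/choroid (log2 fold change 6.33, SE 0.24). PDE6C, the catalytic subunit of the cone phosphodiesterase, had 100.0, 82.2, 91.4 and 89.6 CPM in retina and at most 1.55 CPM in RPE/choroid. KCNV2, a potassium channel subunit of photoreceptor inner segments, had 596, 536, 630.2 and 629 CPM in retina (log2 fold change 6.39, SE 0.19). The exception was CNGB3, a subunit of the cone cyclic nucleotide-gated channel. It had 36.8, 25, 62.2 and 64.1 CPM in retina and 307, 265, 352 and 337 CPM in RPE/choroid, so that every RPE/choroid library lay above every retina library. The RPE/choroid was 7.1-fold higher (log2 fold change -2.83, SE 0.18, adjusted p = 3.21e-06, edgeR). Its channel partner CNGA3 went the other way, with 29.2, 25.2, 35.8 and 33.3 CPM in retina and 0.922, 0.964, 1.24 and 1.36 CPM in RPE/choroid (log2 fold change 4.79, SE 0.093).

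**Figure D2:**
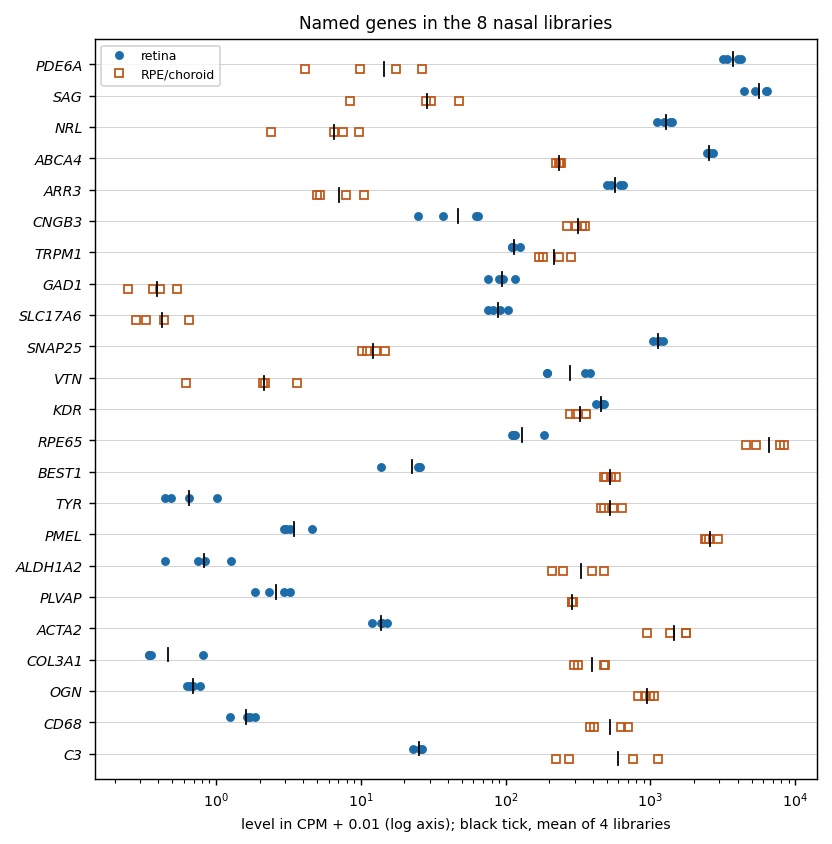
Level of 23 named genes in each nasal library, in CPM on a log axis (0.01 added to every value), with filled circles for the 4 retina libraries, open squares for the 4 RPE/choroid libraries and vertical ticks at the group means. Photoreceptor and neuronal genes lie to the right in retina, RPE, pigment, vessel and stromal genes lie to the right in RPE/choroid, and CNGB3, TRPM1, VTN and KDR break from their lists.

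Inner retinal neurons gave the same picture with a few exceptions. Bipolar cell genes were called higher in retina for 11 of 12 members (median log2 fold change 4.84), amacrine and horizontal cell genes for 14 of 15 (6.16) and ganglion cell genes for 13 of 14 (6.07). GAD1, which makes the transmitter GABA, had 90.7, 76, 96.2 and 116 CPM in retina and 0.36, 0.402, 0.53 and 0.237 CPM in RPE/choroid (log2 fold change 7.92, SE 0.21). SLC17A6, the vesicular glutamate transporter of ganglion cells, had 82.5, 75.9, 104 and 90.8 CPM in retina and 0.27, 0.321, 0.424 and 0.646 CPM in RPE/choroid (7.74, SE 0.17). The 3 neurofilament genes NEFL, NEFM and NEFH had log2 fold changes of 7.07, 6.81 and 6.57 (SE 0.21, 0.29 and 0.31). TH, the first enzyme of dopamine synthesis and a gene of a rare amacrine type, had 1.36, 1.7, 2.52 and 2.44 CPM in retina and 0.202, 0.221, 0.336 and 0 CPM in RPE/choroid. Of these, the RPE/choroid values were near the lower limit.

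The exceptions had levels of the same order in both layers. TRPM1, the channel of ON bipolar cells that is also made by melanocytes, had 110.1, 127, 112 and 111 CPM in retina and 181, 171, 235 and 283 CPM in RPE/choroid, 1.86-fold higher in RPE/choroid (log2 fold change -0.90, SE 0.14, adjusted p = 4.49e-04, edgeR). RBPMS, an RNA-binding protein used as a ganglion cell marker and also present in smooth muscle, had 62.4, 62.4, 84.1 and 71.2 CPM in retina and 199, 167, 160.5 and 144 CPM in RPE/choroid (log2 fold change -1.26, SE 0.13). TFAP2A, a transcription factor of amacrine cells, had 56, 50.3, 54.1 and 68.6 CPM in retina and 73.2, 65.9, 63.9 and 66.6 CPM in RPE/choroid and did not pass the test (adjusted p = 0.0568, edgeR). Without eye 4 it was called higher in RPE/choroid (log2 fold change -0.34, adjusted p = 0.0121, edgeR).

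Müller glia and astrocyte genes were divided. Of 14 members, 10 were called higher in retina and 4 higher in RPE/choroid (median log2 fold change 3.41). Those higher in retina included the glutamate transporter SLC1A3 (log2 fold change 4.14, SE 0.33), the water channel AQP4 (4.69, SE 0.26) and the potassium channel KCNJ10 (3.47, SE 0.32). VIM, an intermediate filament protein also made by fibroblasts and vessel cells, went the other way, with 509, 526, 564 and 580.3 CPM in retina and 2196, 2202, 2599.8 and 2497 CPM in RPE/choroid (log2 fold change -2.12, SE 0.054). HES1 and SOX9, transcription factors that are not restricted to glia, were higher in RPE/choroid as well (-2.0, SE 0.074, and -1.09, SE 0.089), as was CLU, which encodes clusterin (-0.85, SE 0.17). GFAP, the astrocyte filament gene, had 96.4, 155, 13.4 and 13.5 CPM in retina and 7.0, 11.1, 0.831 and 1.27 CPM in RPE/choroid. Both tissues of RM03 lay above the same tissue of RM04 for GFAP, and the tissue difference itself (log2 fold change 3.75, SE 0.22) did not pass the test between animals (adjusted p = 0.933, edgeR).

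Synaptic genes were called higher in retina for 19 of 20 members (median log2 fold change 4.28). SNAP25, a membrane fusion protein of nerve terminals, had 1136, 1037, 1215 and 1155 CPM in retina and 11.1, 14.8, 12.7 and 10.2 CPM in RPE/choroid (log2 fold change 6.54, SE 0.12). CPLX3 and CPLX4, complexins of the ribbon synapse, had log2 fold changes of 7.57 (SE 0.25) and 8.68 (SE 0.38). Vesicle genes with uses outside neurons differed less, as for VAMP2 (2.01, SE 0.059) and UNC13B (0.29, SE 0.059). STX1A was the member called higher in RPE/choroid, with 8.41, 9.83, 8.21 and 8.04 CPM in retina and 10.4, 11.9, 9.85 and 11.9 CPM in RPE/choroid. Its difference (log2 fold change -0.35, SE 0.11) lost its call without eye 3 or eye 4 (adjusted p = 0.0514 and 0.101, edgeR) and with scaling by library size alone (0.158), and that of UNC13B lost it in the fit over the 32 libraries (0.103).

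RPE genes stood higher in RPE/choroid. Of 19 RPE genes, 18 were called higher in RPE/choroid, beside 39.4% of all genes tested, and 0 in retina, with a median log2 fold change of -3.40. RPE65, whose values in every library are given above, was 49.3-fold higher in RPE/choroid (log2 fold change -5.62, SE 0.25, adjusted p = 7.55e-07, edgeR). BEST1, a chloride channel of the basal RPE membrane, had 534, 481, 583 and 492 CPM in RPE/choroid and 25.2, 13.9, 25.7 and 25 CPM in retina (log2 fold change -4.55, SE 0.18). TTR, the carrier of retinol-binding protein, had 3354, 2916, 3331 and 3285 CPM in RPE/choroid and 130.0, 58.8, 93.7 and 106 CPM in retina (-5.05, SE 0.22). For RPE65, BEST1 and TTR the retina of eye 2 was at or near the lowest of the 4 retina libraries, and for each gene every RPE/choroid library lay above every retina library. LHX2, a transcription factor used in both layers, was the member that did not pass the test, with 30.6, 35.4, 31.6 and 31.7 CPM in retina and 25.2, 17.8, 34.3 and 26.6 CPM in RPE/choroid (adjusted p = 0.0897, edgeR). It passed without eye 3, at a log2 fold change of 0.50 (adjusted p = 0.0345), and with scaling by library size alone (0.0160).

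The visual cycle, which returns bleached chromophore to its light-sensitive form, was divided between the layers by step. Of 21 members, 14 were called higher in RPE/choroid and 6 higher in retina. Steps placed in the RPE were higher in RPE/choroid: LRAT, which esterifies retinol (log2 fold change -5.40, SE 0.18), RGR, a retinal G protein-coupled receptor (-4.67, SE 0.19), RRH, the opsin peropsin (-2.86, SE 0.083), and STRA6, the receptor for retinol-binding protein (-4.38, SE 0.21). Steps placed in photoreceptors were higher in retina: RBP3 (8.74, SE 0.42), ABCA4 (3.45, SE 0.063) and the photoreceptor retinol dehydrogenases RDH8 (6.83, SE 0.36) and RDH12 (6.51, SE 0.26). RLBP1, the retinaldehyde-binding protein that Müller glia make as well as the RPE, showed a smaller difference, with 1714, 1515, 2630.5 and 2301 CPM in RPE/choroid and 771, 777, 661 and 631 CPM in retina (log2 fold change -1.50, SE 0.17). DHRS9, a short-chain dehydrogenase, was higher in retina (1.51, SE 0.44), with 6.82, 8.15, 2.37 and 2.78 CPM in retina and 0.90, 1.57, 1.59 and 2.2 CPM in RPE/choroid. The DHRS9 call rested on both eyes of RM03, since it was lost without eye 1 or eye 2 (adjusted p = 0.0734 and 0.0916, edgeR).

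Genes for making retinoic acid, the signal formed from retinal, were concentrated in RPE/choroid. The 3 retinaldehyde dehydrogenases ALDH1A1, ALDH1A2 and ALDH1A3 had log2 fold changes of -6.53 (SE 0.11), -8.63 (SE 0.21) and -4.57 (SE 0.18). ALDH1A2 had 208, 251, 394 and 481 CPM in RPE/choroid and 0.435, 0.832, 0.745 and 1.26 CPM in retina. The enzymes that break retinoic acid down were higher there as well. CYP26A1 had 48.6, 53.9, 7.0 and 6.76 CPM in RPE/choroid, with both eyes of RM03 far above both eyes of RM04, and 0.586, 0.544, 0.878 and 0.639 CPM in retina (log2 fold change -4.86, SE 0.60). CYP26B1 had 20.7, 21.5, 17.9 and 18.8 CPM in RPE/choroid and 2.43, 4.06, 5.6 and 6.77 CPM in retina (-2.12, SE 0.26). The receptors were divided: RARB (-2.0, SE 0.14), RARG (-1.91, SE 0.11) and RXRA (-1.34, SE 0.067) were higher in RPE/choroid, while RXRG (3.90, SE 0.16), RXRB (0.67, SE 0.078) and RARA (0.33, SE 0.074) were higher in retina. Of 15 members tested, 8 had a tissue difference that differed between the animals, against 10.3% of all genes tested. Without eyes 1, 2, 3 and 4 that count was 6, 6, 2 and 1.

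Pigment genes showed some of the widest gaps at this location. All 13 melanin genes tested were called higher in RPE/choroid (median log2 fold change -5.49). TYR, the first enzyme of melanin synthesis, had 454, 482, 552 and 633 CPM in RPE/choroid and 0.435, 0.48, 0.646 and 1.01 CPM in retina, 829-fold higher in RPE/choroid (log2 fold change -9.70, SE 0.16, adjusted p = 4.66e-09, edgeR). PMEL, the fibril protein of melanosomes, had 2378, 2944, 2432 and 2535 CPM in RPE/choroid and 2.95, 3.06, 3.21 and 4.6 CPM in retina (log2 fold change -9.55, SE 0.15). MITF, the transcription factor of pigment cells, was higher by less, 254, 273, 326 and 331 CPM against 12.6, 16.2, 14 and 12.2 CPM (-4.42, SE 0.12). DCT, a melanin enzyme downstream of TYR, had 13.5, 15.3, 55.7 and 79.6 CPM in RPE/choroid, so that RM04 lay above RM03 in both eyes. TYRP1, another melanosome enzyme, was nearly constant across the eyes, at 1779.6, 1753, 1795 and 1847 CPM in RPE/choroid and 42.2, 30.2, 42.7 and 44.8 CPM in retina. RPE and choroidal melanocytes both carry these genes and cannot be told apart in these libraries.

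Phagocytosis genes did not follow a single layer, with 10 of 15 called higher in RPE/choroid and 5 in retina (median log2 fold change -1.04). The receptor MERTK, needed for uptake of outer segments, had 113, 96.9, 59.3 and 70.7 CPM in RPE/choroid and 10.4, 8.93, 14.5 and 16.6 CPM in retina (log2 fold change -2.75, SE 0.27). Of its ligands, PROS1 was higher in RPE/choroid (-3.10, SE 0.13) and GAS6 by little (-0.53, SE 0.091). MFGE8, a bridge to the integrin receptor, was higher in retina (1.72, SE 0.13), while the integrin subunits ITGAV (-1.30, SE 0.11) and ITGB5 (-1.92, SE 0.13) were higher in RPE/choroid. The scavenger receptor CD36 had 99.6, 127, 64.4 and 65.5 CPM in RPE/choroid and no more than 0.24 CPM in retina. CTSD, a lysosomal protease, had 5869, 6221, 4615 and 3931 CPM in RPE/choroid and 372, 301, 489 and 491 CPM in retina (-3.65, SE 0.21).

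Vessel genes were higher in RPE/choroid, the layer with the choroidal bed. Endothelial genes were called higher there for 14 of 16 members (median log2 fold change -4.50) and mural cell genes for 12 of 12 (-3.66). PLVAP, the diaphragm protein of fenestrated endothelium, had 291, 289, 287 and 292 CPM in RPE/choroid and 1.86, 2.94, 3.21 and 2.33 CPM in retina (log2 fold change -6.81, SE 0.15). VWF, a clotting factor stored in endothelium, had 487, 543, 533 and 559 CPM in RPE/choroid and 11.8, 14, 15.2 and 12.8 CPM in retina (-5.30, SE 0.081). CLDN5, the tight junction claudin of barrier endothelium, did not pass the test, with 6.68, 5.56, 10.5 and 7.64 CPM in RPE/choroid and 5.16, 9.59, 2.72 and 3.42 CPM in retina (adjusted p = 0.185, edgeR). It stood higher in RPE/choroid in eyes 1, 3 and 4 and lower in eye 2, and without eye 2 it was called at a log2 fold change of -1.17 (adjusted p = 0.0145, edgeR). Smooth muscle genes varied between eyes in RPE/choroid, as for MYH11 with 1867, 1153, 2389 and 1199.7 CPM, lower in both left eyes, against 13.7, 13.6, 16.2 and 21.3 CPM in retina (-6.69, SE 0.24).

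Of the angiogenic ligands and receptors, 13 of 15 were called higher in RPE/choroid and 1 in retina. VEGFA, the main vessel growth factor of the eye, differed little between the layers, with 115, 121, 192 and 183 CPM in retina and 171, 156, 253 and 217 CPM in RPE/choroid. The groups overlapped, with both tissues of RM04 above the same tissue of RM03, and the difference was called with the animal as covariate (log2 fold change -0.40, SE 0.070, adjusted p = 8.17e-04, edgeR), but neither without a covariate (adjusted p = 0.135) nor in the fit over the 32 libraries (0.155). KDR, its main signalling receptor, was the member higher in retina, with 419.7, 470.5, 461 and 481 CPM in retina and 279.5, 306, 361 and 358 CPM in RPE/choroid (1.41-fold; log2 fold change 0.50, SE 0.070, adjusted p = 2.16e-04, edgeR). This set KDR apart from FLT1, the other VEGFA receptor (-1.92, SE 0.15), and from the coreceptors NRP1 (-5.08, SE 0.20) and NRP2 (-6.03, SE 0.25), which were higher in RPE/choroid. ANGPT1, a stabilizing ligand of the TEK receptor, had 403, 540.3, 237 and 231 CPM in RPE/choroid and 1.81, 2.02, 1.9 and 2.46 CPM in retina (-7.33, SE 0.25). SERPINF1, which encodes the vessel inhibitor PEDF, was higher in RPE/choroid (-2.04, SE 0.056).

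Of the gene lists, the fibroblast list had the most negative median. Fibroblast genes were called higher there for 12 of 13 members, with a median log2 fold change of -7.99. OGN, a small leucine-rich proteoglycan, had 916, 1002, 825 and 1056 CPM in RPE/choroid and 0.653, 0.624, 0.679 and 0.767 CPM in retina, and its log2 fold change of -10.44 (SE 0.11, adjusted p = 2.65e-09, edgeR) was the lowest of the genes ranked for size. COL1A2 and COL3A1, chains of fibrillar collagen, had log2 fold changes of -9.53 (SE 0.33) and -9.74 (SE 0.20). Several stromal genes differed by animal within RPE/choroid: APOD, a lipid carrier, had 584, 343, 2655 and 2434 CPM, and MGP, an inhibitor of calcification, had 2435, 2614, 891 and 666 CPM. APOD was thus higher in RM04 and MGP in RM03, while the retina held 8.31, 8.0, 8.43 and 9.26 and 6.46, 6.13, 5.63 and 4.1 CPM. PDGFRA, a receptor of fibroblasts and of retinal astrocytes, differed by little (-0.58, SE 0.057).

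Bruch's membrane and matrix genes were called higher in RPE/choroid for 23 of 24 members (median log2 fold change -3.87). TIMP3, a metalloproteinase inhibitor deposited in Bruch's membrane, had 4715, 4792, 4577 and 4013 CPM in RPE/choroid and 207, 158, 242 and 246 CPM in retina (log2 fold change -4.42, SE 0.14). FBLN5, an elastin assembly protein, had 314, 397, 221 and 150.0 CPM in RPE/choroid and 1.72, 2.54, 1.64 and 1.24 CPM in retina (-7.20, SE 0.19). EFEMP1, a fibulin, had 1531, 2078, 1125 and 936 CPM in RPE/choroid and 43.2, 39.2, 56.1 and 63.7 CPM in retina (-4.78, SE 0.27). Basement membrane collagens split by chain: COL4A1 had a log2 fold change of -4.0 (SE 0.078), COL4A3 of -1.27 (SE 0.13), and COL4A4, at -0.53 (SE 0.28), did not pass the test. Without eye 4, COL4A4 was called at -0.84 (adjusted p = 0.0294, edgeR).

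Immune genes were also higher in RPE/choroid, with 14 of 15 myeloid genes (median log2 fold change -5.25) and 7 of 7 lymphoid and mast cell genes (-4.53) called higher there. CD68, a lysosomal protein of macrophages, had 628, 702, 380.3 and 406 CPM in RPE/choroid and 1.62, 1.84, 1.71 and 1.25 CPM in retina (log2 fold change -8.33, SE 0.14). CD74, the invariant chain of antigen presentation, had 1872, 1970.0, 2048 and 1851 CPM in RPE/choroid and 29.5, 31.3, 36 and 31.3 CPM in retina (-5.92, SE 0.072). P2RY12, a receptor of resting microglia, did not pass the test, with 5.02, 5.33, 3.93 and 3.34 CPM in retina and 4.39, 7.59, 5.98 and 6.89 CPM in RPE/choroid (adjusted p = 0.0531, edgeR). It was called without eye 1 (log2 fold change -0.72, adjusted p = 0.00867) and by DESeq2 (-0.52, adjusted p = 0.0306). CX3CR1, another microglial receptor, had 6.8, 6.71, 9.42 and 7.46 CPM in retina and 8.46, 8.15, 29.8 and 35.6 CPM in RPE/choroid, close in RM03 and apart in RM04. Its log2 fold change was -1.14 (SE 0.31), and the call was lost without eye 3 or eye 4 (adjusted p = 0.0902 and 0.0588, edgeR).

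Complement, the plasma protein cascade of innate immunity, was called higher in RPE/choroid for 20 of 21 members (median log2 fold change -4.56). The classical pathway protease C1S had 323, 392, 398 and 356 CPM in RPE/choroid and 2.93, 4.14, 2.32 and 2.71 CPM in retina (log2 fold change -6.94, SE 0.16). C3, the component on which the pathways converge, had 224, 275, 1133 and 760.5 CPM in RPE/choroid, higher in both eyes of RM04, and 23.1, 26.4, 25.6 and 26.1 CPM in retina (-4.27, SE 0.36). Inhibitors were higher in RPE/choroid along with the components, as for SERPING1 (-5.46, SE 0.076) and CD59 (-1.97, SE 0.052). VTN, which encodes vitronectin, was the member higher in retina, with 193, 194, 382 and 353 CPM in retina and 0.607, 3.61, 2.16 and 2.11 CPM in RPE/choroid (125-fold; log2 fold change 6.97, SE 0.41, adjusted p = 3.37e-06, edgeR).

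Nerve sheath genes of Schwann cells were called higher in RPE/choroid for 8 of 11 members (median log2 fold change -2.46). CDH19, a cadherin of the Schwann lineage, had 108, 92.9, 88 and 109 CPM in RPE/choroid and 0.301, 0.336, 0.0828 and 0.284 CPM in retina (log2 fold change -8.61, SE 0.28). L1CAM, an axonal adhesion molecule, was the member higher in retina (1.07, SE 0.14).

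Glycolysis is the main route by which photoreceptors use glucose, and lactate is exchanged with the RPE. Of 21 genes of glucose and lactate handling, 15 were called higher in retina and 4 higher in RPE/choroid (median log2 fold change 1.35). Names are uncertain for 10 of these 21 entries, and of the 11 others 6 were called higher in retina and 4 higher in RPE/choroid, with a median of 0.66. HK2, the hexokinase of glycolytic cells, had 577, 550.4, 596 and 588 CPM in retina and 16.1, 21.5, 13.4 and 15.7 CPM in RPE/choroid (log2 fold change 5.13, SE 0.12, adjusted p = 1.95e-08, edgeR). HK1, the general hexokinase, differed by less (1.54, SE 0.065). ENO2 and ALDOC, the neuronal enolase and aldolase, had log2 fold changes of 6.77 (SE 0.22) and 3.46 (SE 0.083). Transporters did not follow the enzymes. SLC2A1, the glucose transporter of the RPE and barrier endothelium, had 383, 369.9, 512 and 492 CPM in retina and 617, 639, 596 and 532 CPM in RPE/choroid (-0.45, SE 0.12). That call was lost without eye 1 (adjusted p = 0.0621, edgeR) and with scaling by library size alone (0.0679). For SLC16A1, a lactate transporter, the groups overlapped, with 203, 172, 187 and 195 CPM in retina and 190.1, 182, 217 and 184 CPM in RPE/choroid (-0.027, SE 0.075, adjusted p = 0.754, edgeR). The 95% interval of that difference was -0.20 to 0.15 on the log2 scale.

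Of 20 ion and water transport genes, 7 were called higher in retina and 10 in RPE/choroid, beside 40.3% and 39.4% of all genes tested. Carbonic anhydrases were divided by form, with CA2, the soluble form, higher in retina (3.43, SE 0.41) and the membrane form CA14 higher in RPE/choroid (-1.99, SE 0.080). The chloride channel CFTR had 15.8, 14.4, 1.2 and 1.01 CPM in RPE/choroid, far higher in both eyes of RM03 than in those of RM04, and at most 0.679 CPM in retina. Its call (log2 fold change -3.41, SE 0.79) was lost without eye 1 or eye 2 (adjusted p = 0.0665 and 0.0587, edgeR).

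For norrin, whose signalling guides retinal vessels, the ligand and its receptor complex lay on opposite sides. NDP, the ligand norrin, had 12, 12.9, 11.1 and 9.9 CPM in retina and 2.02, 1.12, 0.849 and 0.775 CPM in RPE/choroid (log2 fold change 3.32, SE 0.22). Its receptor complex was higher in RPE/choroid: FZD4 (-2.72, SE 0.079), the coreceptor LRP5 (-3.51, SE 0.12) and TSPAN12 (-5.15, SE 0.20). Secreted Wnt inhibitors were found on both sides, with WIF1 (5.52, SE 0.53), SFRP2 (4.44, SE 0.50) and DKK3 (2.88, SE 0.13) higher in retina and DKK2 (-6.59, SE 0.12) higher in RPE/choroid. DKK1, a further inhibitor, was seen in the retina of RM04 and barely elsewhere, with 0.151, 0.16, 8.23 and 27.9 CPM in retina and 0.135, 0.181, 0.0354 and 0.56 CPM in RPE/choroid. It was called with the animal as covariate (log2 fold change 4.36, SE 1.27) and not with the eye as block (adjusted p = 0.0530, edgeR). In all, 7 of 25 members of the Wnt and norrin list were called higher in retina, 11 higher in RPE/choroid and 7 in neither. The shares over all genes tested were 40.3% and 39.4%, and the median log2 fold change of the list was -0.38.

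BMP and TGF-beta genes were called higher in RPE/choroid for 20 of 26 members and higher in retina for 3 (median log2 fold change -2.70). The ligand BMP4 had 379, 343, 410.1 and 401 CPM in RPE/choroid and 12.3, 7.6, 9.71 and 9.2 CPM in retina (log2 fold change -5.30, SE 0.14). TGFB1 was higher in RPE/choroid (-4.75, SE 0.083) whereas TGFB2, with 72.3, 72.7, 60.7 and 68.1 CPM in retina and 70.2, 79.4, 52.4 and 55.6 CPM in RPE/choroid, did not pass the test (0.10, SE 0.083). With scaling by library size alone TGFB2 was called higher in retina (0.27, adjusted p = 0.0360, edgeR). The receptor TGFBR2 was higher in RPE/choroid (-4.84, SE 0.084), while its partner TGFBR1 stood at -0.032 (SE 0.072) with an adjusted p of 0.695 (edgeR). Target genes ID1 (-4.28, SE 0.19) and ID3 (-3.19, SE 0.12) were higher in RPE/choroid. GREM1, a secreted BMP antagonist, was higher in retina, with 3.42, 7.76, 5.68 and 2.78 CPM against 0.99, 0.241, 0.177 and 0.28 CPM (3.65, SE 0.53).

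Junction genes were divided between the layers. The epithelial cadherins CDH1 (-4.83, SE 0.082) and CDH3 (-4.29, SE 0.19) were higher in RPE/choroid and the neural cadherin CDH2 higher in retina (4.18, SE 0.11). CRB1 and CRB2, Crumbs polarity proteins of the outer limiting membrane, were higher in retina (8.01, SE 0.34, and 5.92, SE 0.31). CRB1 had 493, 386, 423 and 325 CPM in retina and 0.675, 2.39, 1.04 and 2.17 CPM in RPE/choroid. Of 18 members, 12 were called higher in RPE/choroid and 5 in retina.

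Transcription factors marked the layers clearly. Of 22 factors of the eye field and retinal neurons, 18 were called higher in retina (median log2 fold change 6.31), and of 22 factors of pigment cells, vessels and stroma, 19 were called higher in RPE/choroid (-4.75). PAX6 had 324, 332, 351 and 328 CPM in retina and 2.52, 7.15, 3.32 and 6.2 CPM in RPE/choroid (log2 fold change 6.12, SE 0.30). OTX2, which acts in photoreceptors and in the RPE, had 519.6, 444, 438 and 414 CPM in retina and 225, 246, 213 and 180.3 CPM in RPE/choroid (1.07, SE 0.079). SIX3 and MEF2C did not pass the test, with log2 fold changes of -0.082 (SE 0.10) and -0.055 (SE 0.081). On the other side, FOXC1, a factor of the periocular mesenchyme, had a log2 fold change of -5.43 (SE 0.090), and the endothelial factor ERG of -4.59 (SE 0.10). OSR1 was listed at 0 in the 4 retina libraries and at 4.21, 5.36, 1.15 and 1.4 CPM in RPE/choroid. The study followed 3 factors across locations in both tissues: IRX2 (-1.50, SE 0.17) and NR2F1 (-1.11, SE 0.13) were higher in nasal RPE/choroid and ZFHX4 (0.62, SE 0.15) higher in nasal retina.

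**Figure D3:**
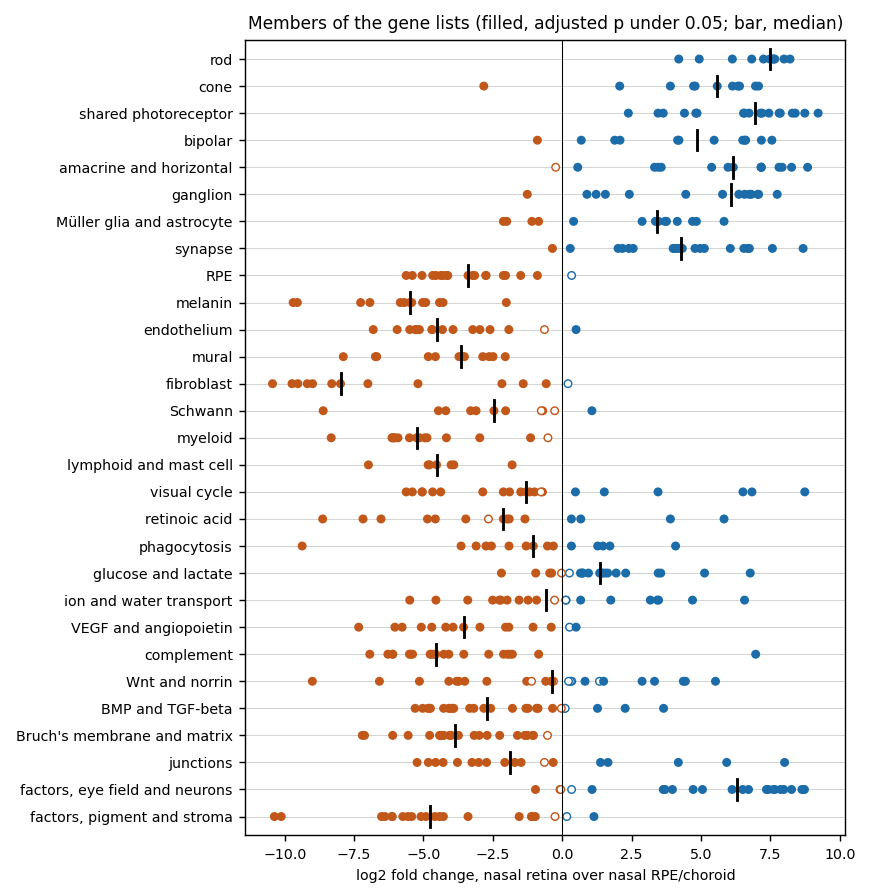
Log2 fold change of nasal retina over nasal RPE/choroid for every tested member of 29 gene lists, 1 row a list, with filled circles for members at an adjusted p under 0.05, open circles for the others, and a vertical bar at the list's median. Lists of retinal neurons lie to the right of 0 and those of RPE, pigment, vessels, stroma and immune cells to the left, while visual cycle, phagocytosis, ion transport and Wnt genes extend to both sides.

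The study paired ligands and receptors across the layers. It kept pairs whose partners, each in its own tissue, were both up or both down in macula over periphery. The layer in which a partner was higher was not part of that choice. These 66 pairs come from macular and peripheral libraries of these same eyes, so their directions are not independent of those samples. Pairs that the study printed more than once were counted once. Some stand in both its up and its down list, among them FGFR1 with NCAM1 and EFNA1 with EPHA3. Of the 64 pairs with both partners tested at the nasal location, 13 had the RPE/choroid partner higher in RPE/choroid and the retina partner higher in retina. In 28 pairs both partners were higher in RPE/choroid, in 5 both were higher in retina, in 6 each was higher in the opposite layer, and in 12 a partner was not called. As single genes, 34 of 51 tested RPE/choroid partners were called higher in RPE/choroid and 16 of 52 tested retina partners higher in retina. The shares over all genes tested were 39.4% and 40.3%. Whether the 13 pairs exceed what unrelated partners with the same counts would give was not tested. Among those 13 pairs, the growth factor MDK, an uncertain name, was higher in RPE/choroid (-5.99, SE 0.13) and its receptor ALK higher in retina (1.42, SE 0.19). The plexin PLXNC1 was higher in RPE/choroid (-4.40, SE 0.13) and its ligand SEMA7A higher in retina (3.56, SE 0.12). In another pair, IGF2, a growth factor, was higher in RPE/choroid (-8.95, SE 0.28) and its receptor IGF1R did not pass the test (0.27, SE 0.12). IGF1R was called higher in retina without eye 2 (0.43, adjusted p = 0.00481, edgeR), with library size alone (0.43, 0.0189) and in the fit over the 32 libraries (0.26, 0.0344). The macrophage receptor CSF1R and its ligand IL34 were both higher in RPE/choroid (-4.17, SE 0.12, and -3.74, SE 0.13). VEGFA and KDR form a pair with small differences in opposite directions, as given above.

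Genes with the largest differences were ranked among those called, with a mean of at least 50 CPM in the higher tissue and no overlap. The 12 most in favour of retina had log2 fold changes from 7.94 to 9.22. They included IMPG1, RBP3, CPLX4, IMPG2, GUCA1B, CLUL1, ESRRB, CRB1, PDE6A, NEUROD1 and RGS8, which are mostly photoreceptor genes. IMPG1 is an uncertain name, because several entries carry it or the name table differs. NEUROD1, a basic helix-loop-helix factor, had 302, 268, 269.6 and 277 CPM in retina and 0.27, 2.27, 0.495 and 1.4 CPM in RPE/choroid. RGS8, a regulator of G protein signalling, had 115, 108, 148 and 146 CPM in retina and at most 0.924 CPM in RPE/choroid. The 12 most in favour of RPE/choroid had log2 fold changes from -9.44 to -10.44. They included OGN, IGHV4-28, CHIT1, COL3A1, TYR, IGHA2, PMEL, COL1A2, CPXM1, VSIG4 and SELP, which covers stroma, pigment cells, immunoglobulin, macrophages and venous endothelium. CHIT1, a macrophage chitinase, had 359, 440.1, 533 and 500.4 CPM in RPE/choroid and 0.419, 0.64, 0.596 and 0.412 CPM in retina. VSIG4, a complement receptor of resident macrophages, had 88.6, 99.8, 34.7 and 30.1 CPM in RPE/choroid and 0.10, 0.064, 0.0662 and 0.0994 CPM in retina. The immunoglobulin segment IGHV4-28 had 24.1, 189.7, 4.49 and 4.24 CPM in RPE/choroid, so its level differed widely between eyes while staying above the retina, at 0.0335, 0.112, 0.0331 and 0 CPM. At the other end, the nuclear genes NCL, SON and EP300 were among the abundant genes with the smallest differences. NCL, nucleolin, had 543, 479, 525 and 507 CPM in retina and 495, 518, 519 and 506 CPM in RPE/choroid, with a 95% interval of the log2 difference of -0.12 to 0.14. With scaling by library size alone NCL was called higher in retina (log2 fold change 0.17, adjusted p = 0.0258, edgeR).

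Transcripts of each layer were found in the other, at levels that differed by list. Within eyes, the summed level of the rod list in RPE/choroid was 1.71%, 2.71%, 2.16% and 2.16% of that in retina, in the order of the eyes. The median over genes was 0.16%, 1.07%, 0.531% and 0.627%, since GNB1 carries much of the sum. Eye 1 was lowest and eye 2 highest by both measures. Other retinal lists reached more of their retinal sum in RPE/choroid: 11.9% to 14.1% for cone genes, 10.7% to 11.9% for ganglion cell genes, 16.7% to 24.5% for bipolar cell genes and 16.2% to 24.1% for amacrine and horizontal cell genes. As medians over genes and over the eyes these were 2.53%, 1.96%, 3.07% and 0.414%, and CNGB3, TRPM1 and RBPMS, which were higher in RPE/choroid, are among the genes summed. In the opposite direction, the RPE list in retina summed to between 7.1% and 9.84% of its level in RPE/choroid and the melanin list to between 1.31% and 1.87%. Myeloid genes in retina summed to 1.94% to 2.61% and fibroblast genes to 2.09% to 2.84% of their RPE/choroid level. Endothelial genes reached 17.5% to 20.2%, of which KDR made the largest part in retina, with a median over genes of 4.54%. Whether such transcripts were made in the layer or carried over at dissection was not tested.

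The tissue difference at the nasal location was then set against that at the other locations, with a test of the difference between differences over the 32 libraries, in which the nasal libraries enter each comparison. Against the perimacula, 136 of 16382 genes (0.83%) had a different tissue difference, 90 with a larger and 46 with a smaller log2 fold change of retina over RPE/choroid at the nasal location. Against the fovea, 3849 genes differed (23.5%; 2046 larger, 1803 smaller), and against the periphery 2500 (15.3%; 1010 or 6.17% larger, 1490 or 9.1% smaller). The balance of directions against the fovea turned to 1525 larger and 1611 smaller without eye 2, 1050 and 1524 without eye 3, and 1012 and 1510 without eye 4. Without eye 1 it did not turn (1359 and 1193). It turned on flow cells HLKJ7BBXX (1954 and 2089) and HLKMNBBXX (2049 and 2364) alone, in fits that also leave out the periphery libraries. With at least 10 counts in every library it turned as well (1819 and 2020). The perimacula count was not stable to leaving out an eye, being 6, 49, 34 and 12 genes without eyes 1, 2, 3 and 4. Each of these fits also has fewer libraries, and the cause of the fall was not tested. In the same order the fovea count was 2552, 3136, 2574 and 2522, and the periphery count 1224, 1477, 1267 and 1830. With scaling by library size alone, 230 genes had a larger and 29 a smaller value against the perimacula, and 1806 and 707 against the periphery, so that the balance of directions there depends on the scaling. Periphery libraries were run on another flow cell, and since both tissues were, that difference and the flow cell cannot be told apart for a gene whose reading depends on the run. By list, against the fovea, 6 of 11 rod genes had a larger log2 fold change of retina over RPE/choroid at the nasal location and 0 a smaller one, beside 12.5% and 11% of all genes. That count was 3 with the eye as block and 3, 10, 1 and 1 without eyes 1, 2, 3 and 4, so it was not stable to the eyes included. For genes of glucose and lactate handling, 12 of 21 had a smaller log2 fold change at the nasal location and 0 a larger one, and 8 to 11 were smaller without an eye. Among the 11 entries whose names are not uncertain, 4 were smaller. RPE genes had a less negative fold change at the nasal location than at the fovea for 9 of 19 members (6, 10, 4 and 3 without eyes 1 to 4) and a more negative one than at the periphery for 10 (10, 2, 5 and 5). Mural cell genes did so for 5 (5, 3, 3 and 4) and 8 (4, 6, 7 and 7) of 12 members. Against the fovea these 4 counts were the same with RLE scaling and with library size alone, and against the periphery they were 9 and 8 RPE genes and 8 and 6 mural cell genes.

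Named genes show where the locations parted, with levels here scaled over the 32 libraries. PAX6 kept a similar retinal level at the nasal location (332, 337, 359 and 340.0 CPM) and the perimacula (386, 346, 373 and 541 CPM), while RPE/choroid held 2.64, 7.29, 3.42 and 6.42 CPM and 1.04, 0.863, 0.658 and 2.54 CPM. Its tissue difference was smaller at the nasal location (difference of log2 fold changes -2.25, SE 0.53, adjusted p = 0.0412, edgeR). MAB21L1, a developmental gene of the eye, behaved likewise, with RPE/choroid at 7.56, 8.91, 12 and 9.65 CPM at the nasal location and 2.4, 1.22, 1.94 and 1.73 CPM at the perimacula (difference -2.32, SE 0.34). PRUNE2 (-2.32, SE 0.32), VGLL3 (-2.66, SE 0.56) and BAALC (-1.81, SE 0.37) completed the 5 with the most negative values. EBF3, a helix-loop-helix factor, went the other way, with RPE/choroid at 0.0942, 0.41, 0.164 and 0.0668 CPM at the nasal location and 4.8, 5.15, 4.42 and 5.69 CPM at the perimacula and retina at 15, 12.7, 17.5 and 16 and 17.3, 18.8, 17.9 and 30.8 CPM (difference 4.26, SE 0.55). SPHKAP, an anchoring protein of excitable cells, had RPE/choroid levels of 2.68, 3.3, 3.28 and 1.4 CPM against 29.3, 30.7, 19.9 and 17.9 CPM (2.95, SE 0.44). The other 3 of the 5 most positive were VIT (3.27, SE 0.63), KCNK5 (3.24, SE 0.54) and HHATL (3.07, SE 0.66). For PAX6, MAB21L1, EBF3 and SPHKAP the RPE/choroid and not the retina carried most of the change in level. Of these 10 genes, 9 were called with the eye as block, where PAX6 was the exception (adjusted p = 0.0505), and 2, 6, 4 and 3 were called without eyes 1, 2, 3 and 4. None of the 10 was called each time. MAB21L1 and PRUNE2 kept the call without eye 1 and lost it without eye 4 (adjusted p = 0.0939 and 0.0617, edgeR). EBF3 and SPHKAP lost the call without eye 1 (0.0521 and 0.0972) and kept it without each of the other eyes. PAX6 lost it without each of the eyes (adjusted p = 0.276, 0.153, 0.0997 and 0.242, in the order of the eyes) and with no covariate (0.0912), with values from -2.51 to -1.88 without an eye.

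Against the fovea the retina carried much of the change. CYP26B1, which degrades retinoic acid, had retinal levels of 2.49, 4.13, 5.74 and 7.02 CPM at the nasal location and 0.144, 0.139, 0.165 and 0.0994 CPM at the fovea, with RPE/choroid at 21.6, 21.9, 18.4 and 19.4 and 16.3, 18.2, 11.4 and 14.1 CPM. The difference of log2 fold changes was 4.67 (SE 0.74, adjusted p = 2.68e-05, edgeR). Its relative CYP26A1 showed the reverse, with retina at 0.601, 0.553, 0.90 and 0.662 CPM at the nasal location and 12.3, 17.7, 17.7 and 16.9 CPM at the fovea (-4.76, SE 1.25). CA12, a carbonic anhydrase, changed in both layers: retina went from 1.42, 3.05, 2.8 and 2.22 CPM at the fovea to 18.8, 20.5, 21.1 and 20.02 CPM at the nasal location, and RPE/choroid from 134, 118, 149 and 172 to 56.1, 48.8, 47.6 and 38.7 CPM (4.63, SE 0.48). GPR149, an orphan receptor, had retina at 2.83, 2.38, 5.04 and 5.29 CPM at the nasal location and 22.9, 20.5, 31.4 and 33.8 CPM at the fovea (-3.85, SE 0.81). CPZ, a carboxypeptidase that binds Wnt (-4.73, SE 0.93), and PMP2, a myelin protein (-5.65, SE 1.59), were further genes with a smaller fold change at the nasal location. For PMP2, foveal retina stood at 50.7, 36.2, 3.15 and 3.61 CPM, with both eyes of RM03 above those of RM04. The PMP2 call was lost without eye 1 or eye 4 (adjusted p = 0.1055 and 0.0542, edgeR). COL19A1 (4.75, SE 1.40) rested on uneven libraries, with nasal retina at 5.0, 18.7, 19.8 and 5.24 CPM and foveal RPE/choroid at 7.71, 0.446, 0 and 0.0466 CPM. Its value was 1.46 without eye 1 (adjusted p = 0.50, edgeR) and 1.64 on flow cell HLKMNBBXX alone (0.442). LRRC6, an uncertain name (5.32, SE 1.10), and the immunoglobulin segments IGLV5-52 (10.47, SE 3.77) and IGLV1-36 (-4.06, SE 1.28) complete the 10 genes. IGLV5-52 had 0.0171, 0.277, 0.017 and 0.0294 CPM in nasal retina and at most 0.0471 CPM in nasal RPE/choroid, and the levels behind its value were those of foveal RPE/choroid, at 0.0537, 0.111, 81.4 and 15.2 CPM. Its call was lost on either flow cell alone (adjusted p = 0.138 and 0.0755, edgeR) and without any 1 of the eyes (0.0525 to 0.298). IGLV1-36 ranged from 1.02 to 71.9 CPM within nasal RPE/choroid, and its value was -2.69 without eye 1 (adjusted p = 0.257). Such segments belong to a family of close copies whose reads can be split between entries. All 10 were called with the eye as block, and 6, 7, 8 and 8 were called without eyes 1, 2, 3 and 4. CYP26B1, CYP26A1, CA12, GPR149, CPZ and LRRC6 were called each time.

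**Figure D4:**
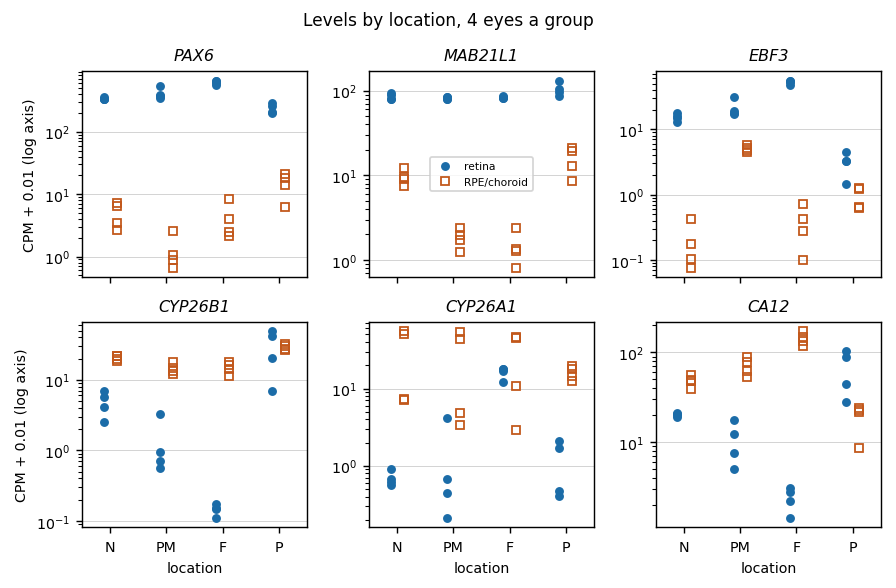
Level of 6 genes in every library of the series by location (N nasal, PM perimacula, F fovea, P periphery), in CPM on a log axis (0.01 added), with filled circles for retina, open squares for RPE/choroid and 4 eyes a group. The RPE/choroid values of PAX6, MAB21L1 and EBF3 shift between the nasal location and the perimacula, and the retinal values of CYP26B1, CYP26A1 and CA12 shift between the nasal location and the fovea.

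Between the animals, 1593 of 15532 genes (10.3%) had a different nasal tissue difference, 842 (5.42%) with a larger and 751 (4.84%) with a smaller log2 fold change in RM04. Of these, 1270 were also called between the tissues, and in 237 both eyes of an animal differed in one direction and both eyes of the other animal in the opposite direction. Of the 5 genes with the smallest adjusted p, GPR4, WISP1 and PADI2 were of this kind. GPR4, a proton-sensing receptor, had 75.9, 77.2, 0.778 and 0.483 CPM in retina and 29.2, 24, 25 and 23 CPM in RPE/choroid, so the retina was higher in RM03 and lower in RM04 (difference of log2 fold changes, RM04 minus RM03, -6.79, SE 0.25, adjusted p = 4.33e-06, edgeR). WISP1, a matricellular protein of the CCN family that the name table gives as CCN4, had 0.0502, 0, 47.5 and 51.3 CPM in retina and 10.1, 10.6, 20.1 and 21.4 CPM in RPE/choroid (adjusted p = 4.33e-06, edgeR). The retinas of RM03 held almost none of it. PADI2, a peptidylarginine deiminase, had 378, 387, 248 and 249 CPM in retina and 92.1, 90.8, 449 and 504 CPM in RPE/choroid, higher in retina in RM03 and higher in RPE/choroid in RM04 (-3.0, SE 0.10). CACNA1B, a calcium channel of nerve terminals, had 14.2, 12.7, 0.53 and 0.624 CPM in RPE/choroid against 22.1, 24.1, 32.1 and 32.2 CPM in retina (5.03, SE 0.20), and WARS, a tryptophan tRNA ligase whose name the name table gives differently, had 81.5, 74.8, 610.0 and 596 CPM in RPE/choroid against 70.6, 64.5, 80.4 and 74.2 CPM in retina (-2.75, SE 0.11). All 5 were called without any 1 of the eyes, whereas the count of genes fell to 1218, 886, 635 and 464 without eyes 1, 2, 3 and 4, each of which leaves an animal with a single eye that is assumed to vary like the other. Fellow eyes were close to each other in each of these genes. The genes were chosen by the smallest adjusted p, in a test measured against the spread between fellow eyes. Their closeness, and the calls kept without an eye, follow in part from that choice. By list, the share of members with such a difference was 9 of 25 for Wnt and norrin genes, 6 of 13 for fibroblast genes and 0 of 11 for rod genes. Without eyes 1, 2, 3 and 4 these counts were 7, 8, 5 and 4 for Wnt and norrin genes, 4, 4, 5 and 4 for fibroblast genes and 3, 5, 0 and 0 for rod genes. Age, genotype and any other difference between the 2 animals cannot be told apart.

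**Figure D5:**
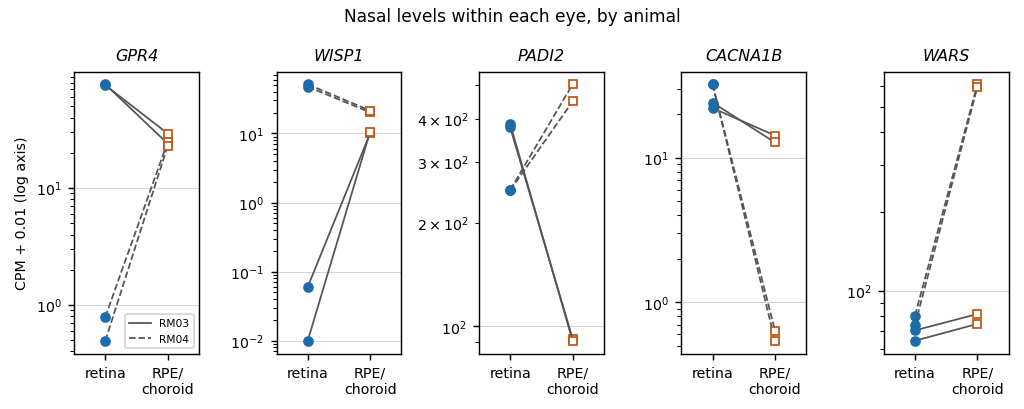
Nasal level of the 5 genes with the smallest adjusted p for a different tissue difference between animals, in CPM on a log axis (0.01 added), with filled circles for retina and open squares for RPE/choroid and a line joining the layers of each eye. Lines of RM03 (solid) and RM04 (dashed) slope in opposite directions for GPR4, WISP1 and PADI2, and fellow eyes lie close together, which the choice of these genes favours.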

How the data were processed

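RNA-seq reads from macaque retina and RPE/choroid punches were quantified by the authors with Salmon (0.13 in the submitters' processing notes) against Mmul_8.0.1, supplemented with alignment to the human genome for genes not otherwise quantified. The deposited tables, 1 per lane, hold estimated counts in a column headed TPM: its totals differ between lanes, from 9156441 to 13647378 in the nasal lanes,, where TPM would sum to 1 fixed total. Estimated counts were summed over the 5 lanes of each nasal library and rounded. Of 19432 entries per lane, 10 repeats were dropped, which left 19422 gene identifiers. Genes were kept with filterByExpr (minimum count 10), scaled by TMM and tested with the edgeR quasi-likelihood test (edgeR 4.0.16, R 4.3.3, robust) with the animal as covariate, which is the covariate of the study's methods, and Benjamini-Hochberg adjustment at 0.05. Differences between locations were tested as interactions over the 32 libraries, and differences between animals as an interaction over the 8 nasal libraries. The fitting steps were tested on simulated data in which few genes differed between the tissues. Most genes differ in these libraries, so that test does not cover scaling under such a condition. Alternatives were DESeq2 1.42.0, RLE scaling, library size alone, other filters, each flow cell alone, the eye as block, no covariate, all 32 libraries, and leaving out each eye or library, with uncertain names left out of list counts added after seeing the data.

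Replicate numbers mark the same eye of the same animal in the labels and pair the samples. Across genes, retina and RPE/choroid of an eye deviated together from their group means (correlations of 0.19 to 0.25), but not once the animal mean was removed (-0.0032 and 0.043), and genes are not independent replicates. Members and gene lists were chosen with earlier results of these data known. The lists hold 488 symbols, of which 457 matched an entry and 450 were tested. The 7 others are not reported in the counts, and 31 were not analysed here. Some members enter the counts but are not reported by name here. Symbols came from the files. Where a file gave only a placeholder (LOC) name, the RefSeq gene name was used, or else the human symbol. RefSeq gene names also served as a check for the other symbols: 14579 identifiers had an entry there and 682 of those differed. Such names, repeated symbols and list members matched by human symbol are called uncertain. Entries without a RefSeq gene name could not be checked in this way. Named were list members that illustrate a list, the 12 largest differences in each direction (mean of at least 50 CPM, no overlap), the 8 smallest (mean of at least 200 CPM, SE under 0.15), the 5 largest interactions in each direction against perimacula and fovea (mean of at least 10 CPM) and the 5 genes with the smallest adjusted p for the animal interaction. Library depth limits low genes: 3 counts are less than 0.1 CPM in these libraries, and the p-values cover the spread between eyes, not further animals.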

Additional observations from a re-analysis of the deposited data

Results flagged for a closer look

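Each group of 4 nasal libraries was checked for a library apart from the other 3, for 189 genes in the text and 377 groups with a spread. A library was marked where its gap to the nearest other exceeded Dixon's critical value at the 95% level, which chance gives in about 1 in 20 groups, and 17 groups were marked. In retina, eye 1 was highest for RPE65 (183 CPM against 110.2 to 116 CPM), SEMA7A (179 CPM) and TSPAN12 (1.29 CPM) and lowest for SFRP2 (23.5 CPM). Eye 2 was lowest for BEST1 (13.9 CPM against 25 to 25.7 CPM) and CPLX4 (299 CPM) and highest for TRPM1 (127 CPM) and IGLV5-52 (0.272 CPM). Eye 3 was highest for DKK2 (1.37 CPM) and lowest for DCT (0.132 CPM), and eye 4 was highest for COL3A1 (0.810 CPM), HES1 (16.9 CPM) and PMEL (4.6 CPM). In RPE/choroid, eye 1 was lowest for CPLX3 (0.832 CPM against 2.26 to 2.45 CPM) and highest for GREM1 (0.990 CPM), while eye 2 was highest for IGHV4-28 (189.7 CPM against 4.24 to 24.1 CPM) and lowest for TTR (2916 CPM). RPE65 and BEST1, both RPE genes, were marked in retina libraries of different eyes.

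The tissue difference differed between the nasal location and others by a test of the difference itself, for 136 genes against the perimacula, 3849 against the fovea and 2500 against the periphery. Against the perimacula the difference of log2 fold changes was 4.26 for EBF3, 3.27 for VIT, 3.24 for KCNK5, 3.07 for HHATL and 2.95 for SPHKAP. It was -2.66 for VGLL3, -2.32 for MAB21L1, -2.32 for PRUNE2, -2.25 for PAX6 and -1.81 for BAALC. Against the fovea it was 10.47 for IGLV5-52, 5.32 for LRRC6, 4.75 for COL19A1, 4.67 for CYP26B1 and 4.63 for CA12. In the other direction it was -5.65 for PMP2, -4.76 for CYP26A1, -4.73 for CPZ, -4.06 for IGLV1-36 and -3.85 for GPR149. Between the animals, 1593 genes differed, and the difference RM04 minus RM03 was -6.79 for GPR4, 9.85 for WISP1, -3.0 for PADI2, 5.03 for CACNA1B and -2.75 for WARS. The value of WISP1 rests on retina libraries of RM03 at 0.0502 and 0 CPM, so its size depends on how the fit treats counts near 0.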

How the results depend on the processing

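The nasal counts of 12379, 6264, 6115 and 7307 genes (called, higher in retina, higher in RPE/choroid, over 2-fold) stayed within 1.5 times under every alternative run, with 10938 to 12877 genes called. With the eye as block, 11897 genes were called, and 3 named genes lost their call between the tissues (CACNA1B, DKK1 and WARS). The block gave 110, 3699 and 2300 genes against perimacula, fovea and periphery. Counts of list members called between the tissues moved by no more than 1.5 times over 210 values from other scalings, the eye block and left-out eyes; counts of list members between locations and animals moved by more, as given with them. Leaving out uncertain names, an alternative chosen after seeing the data, the glucose and lactate genes higher in retina went from 15 of 21 to 6 of 11. Of 1718 alternative values of 172 named genes, 1668 kept direction and side of the threshold, 22 lost the call, 14 gained it and 14 changed sign. Of 305 values of the 25 named interactions, 260 stayed and 45 lost the call.

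The perimacula count of 136 was 408 with DESeq2, 245 and 321 on either flow cell alone, 259 with library size alone and 34 with no covariate, and 6 to 49 without an eye. At an unadjusted p under 0.05 there were 2223 genes. The location fits on either flow cell alone leave out the periphery libraries, so they differ from the main fit in libraries as well as in flow cell. Without an eye, the counts ranged from 2522 to 3136 against the fovea, from 1224 to 1830 against the periphery (1545 with no covariate) and from 464 to 1218 between animals. The cause was not tested, though leaving out an eye also removes samples. As a median over members, the rod list stood at 0.579% in RPE/choroid, and the melanin, fibroblast and endothelial lists at 2.16%, 0.315% and 4.54% in retina, against 2.16%, 1.49%, 2.46% and 18.9% by sums.

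Of the log2 fold changes that changed sign, GPR4 (-1.36), WISP1 (-1.49) and PADI2 (0.56) stood apart from 0 and differed between the animals, and the others were near 0. With library size alone they were 0.11 for MEF2C, 0.080 for SIX3, 0.13 for SLC16A1 and 0.13 for TGFBR1, and with no covariate 0.61 for GPR4 and 0.67 for WISP1. Without an eye, GPR4 ran from -3.17 to 0.12, PADI2 from -0.025 to 1.16, MEF2C from -0.14 to 0.012, SIX3 from -0.15 to 0.022, SLC16A1 from -0.071 to 0.037 and NCL from -0.031 to 0.053. These genes did not pass the test in the main analysis, while WISP1 was called by DESeq2 (-3.60, adjusted p = 0.0488) and NCL with library size alone (0.17, adjusted p = 0.0258).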
